A study of Mus musculus with 4 samples.

Results

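Sox7, Sox17 and Sox18 are the SoxF group of HMG-box transcription factors, and they were examined here in lists of open chromatin from mouse heart nuclei. The 3 genes were taken from the GENCODE annotation of mm10, and every peak whose summit lay in one of them or within 100 kb of it, with no other protein-coding gene nearer, was assigned to that gene. This gave 15 of the 65008 peaks in endothelial nuclei and 6 of the 78912 peaks in non-endothelial nuclei, which merged into 15 regions.

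SoxF factors bind the minor groove of DNA through the HMG box and bend it, and they act in the endothelium of developing and adult vessels. Sox17 is best known for its role in arterial endothelium, Sox18 for lymphatic specification through Prox1 and for vessel integrity, and Sox7 for early endothelial and haematopoietic differentiation. The 3 factors share parts of their function, and ETS factors such as Erg bind many endothelial enhancers that SoxF factors also bind.

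The nuclei came from whole hearts of male NuTRAP/Cdh5-Cre mice on a C57BL/6 background, aged 8 to 12 weeks. All animals carried both alleles: the NuTRAP cassette tags nuclei with GFP after Cre recombination, and the Cdh5 promoter restricts Cre to endothelial cells and their descendants. GFP+ nuclei were endothelial and GFP- nuclei were all others, with 2 ATAC-Seq libraries of each, made from 100 to 50000 nuclei. ATAC-Seq measures where the Tn5 transposase can insert adapters into DNA. Because the authors called peaks from both libraries of a population together, each population has a single list, no value has a replicate error and no test between the populations was made.

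The strength of a peak is given as a rank, the percentile of its deposited area within its own list, from 0 for the smallest to 100 for the largest. Peaks are called shared where they overlap a peak of the other list by 1 bp or more, and unshared otherwise. The lists hold no peak with an area under 200, so that an absent peak means only that none was listed. Among the endothelial markers, 9 of 11 had a promoter peak in GFP+ nuclei and 3 of these had none in GFP- nuclei, including Cldn5 and Emcn. Of all genes with a promoter peak in either list, 1.72% had one in GFP+ nuclei only. By over 20 points, 6 of the 11 markers ranked higher in GFP+ nuclei and 1 lower, Tek, at 81.1 in GFP- and 54.1 in GFP+ nuclei. When any transcript start was counted, 4 of the markers had a peak in GFP+ nuclei only and 0 had none in either list. The starts of all 6 fibroblast gene records, among them Tcf21 and Dcn, had a GFP- peak and no GFP+ peak (4 of 6 when any transcript start was counted), whereas all 6 cardiomyocyte promoters, among them Myh6 and Tnnt2, were listed in both. Of the 4 leukocyte markers, Cd68 alone had a promoter peak, which ranked 31.8 in GFP- and 16.8 in GFP+ nuclei. Of the 5 pericyte and smooth muscle markers 3 had a promoter peak in both lists and 2, Pdgfrb and Rgs5, in GFP- nuclei only, and of the 4 lymphatic endothelial markers 3 were in both and Pdpn in GFP- nuclei only. The part that nuclei of other cell types play in the SoxF peaks was not tested.

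The 6 windows below carry the sequence features described later, each reaching 100 bases to either side of its central base, read from the plus strand of GRCm38.p6. Capitals mark the SOX word CATTGT and the ETS word AGGAAG or their reverse complements, ACAATG for SOX. The first 3 are centred on the summits of unshared GFP+ peaks, 1 for each gene, chosen as the highest-ranked such peak that touches no untranslated region. The other 3 were chosen after the values were seen: the summits of the shared upstream peaks of Sox17 and Sox18 that carried ETS words in their summit window, and a part of the most distant Sox17 peak that holds 2 of its 3 SOX words and is not centred on a summit.
Sox7 downstream, chr14:63957827-63958027: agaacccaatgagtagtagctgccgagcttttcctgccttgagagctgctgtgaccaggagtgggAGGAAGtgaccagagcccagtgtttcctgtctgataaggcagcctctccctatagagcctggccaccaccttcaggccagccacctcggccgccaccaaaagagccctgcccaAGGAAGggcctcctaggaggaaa
Sox17 downstream, chr1:4471361-4471561: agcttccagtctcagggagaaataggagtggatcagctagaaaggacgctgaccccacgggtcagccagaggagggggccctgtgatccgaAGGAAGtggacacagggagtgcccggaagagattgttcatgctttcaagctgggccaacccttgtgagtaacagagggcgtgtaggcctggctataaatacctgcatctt
Sox18 proximal upstream, chr2:181673455-181673655: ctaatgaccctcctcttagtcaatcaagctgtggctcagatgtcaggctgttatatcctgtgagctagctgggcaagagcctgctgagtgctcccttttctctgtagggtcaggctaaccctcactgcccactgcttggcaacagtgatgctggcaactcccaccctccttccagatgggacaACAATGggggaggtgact
Sox17 mid upstream, chr1:4544194-4544394: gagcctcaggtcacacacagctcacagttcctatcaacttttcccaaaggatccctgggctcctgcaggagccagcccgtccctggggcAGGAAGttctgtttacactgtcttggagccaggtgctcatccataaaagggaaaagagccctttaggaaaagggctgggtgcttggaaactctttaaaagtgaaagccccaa
Sox18 distal upstream, chr2:181675582-181675782: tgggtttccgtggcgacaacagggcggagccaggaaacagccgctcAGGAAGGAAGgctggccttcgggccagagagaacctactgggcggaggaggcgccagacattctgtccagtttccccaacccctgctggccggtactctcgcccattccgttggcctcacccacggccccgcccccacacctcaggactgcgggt
Sox17 far upstream, chr1:4571613-4571813: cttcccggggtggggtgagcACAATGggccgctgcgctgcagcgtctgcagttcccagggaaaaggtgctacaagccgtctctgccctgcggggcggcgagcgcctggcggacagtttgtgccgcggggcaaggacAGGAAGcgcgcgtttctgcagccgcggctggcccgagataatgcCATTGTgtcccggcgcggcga

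Open chromatin at the SoxF genes was more extensive in GFP+ than in GFP- nuclei. Of the 15 GFP+ peaks, 9 were unshared, which is 60.0%, against 13.4% of all GFP+ peaks. The exact 95% binomial interval of 32.3 to 83.7% covers counting error only. It takes peaks as independent, although 5 of the 9 unshared ones were assigned to Sox17. Of the 6 GFP- peaks, 0 were unshared, which allows a share of up to 45.9%, against 30.3% of all GFP- peaks. These shares rest on an overlap of 1 bp. When 50% of both peaks had to overlap, 16.7% of the GFP- and 66.7% of the GFP+ SoxF peaks were unshared. All 6 shared regions ranked higher in GFP+ nuclei, a direction seen in 35.4% of shared regions overall. The Sox7 promoter turned to -0.0156 points when peaks were ranked by the -log10 p-value of the summit instead of the area. All 6 shared regions were also longer in GFP+ nuclei, as were 37.4% of the 53996 shared regions. The area adds up along a peak, so that rank and length are not separate results. The GFP+ peaks of the 3 genes summed to 13111 bp and the GFP- peaks to 3906 bp.

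**Figure D1:**
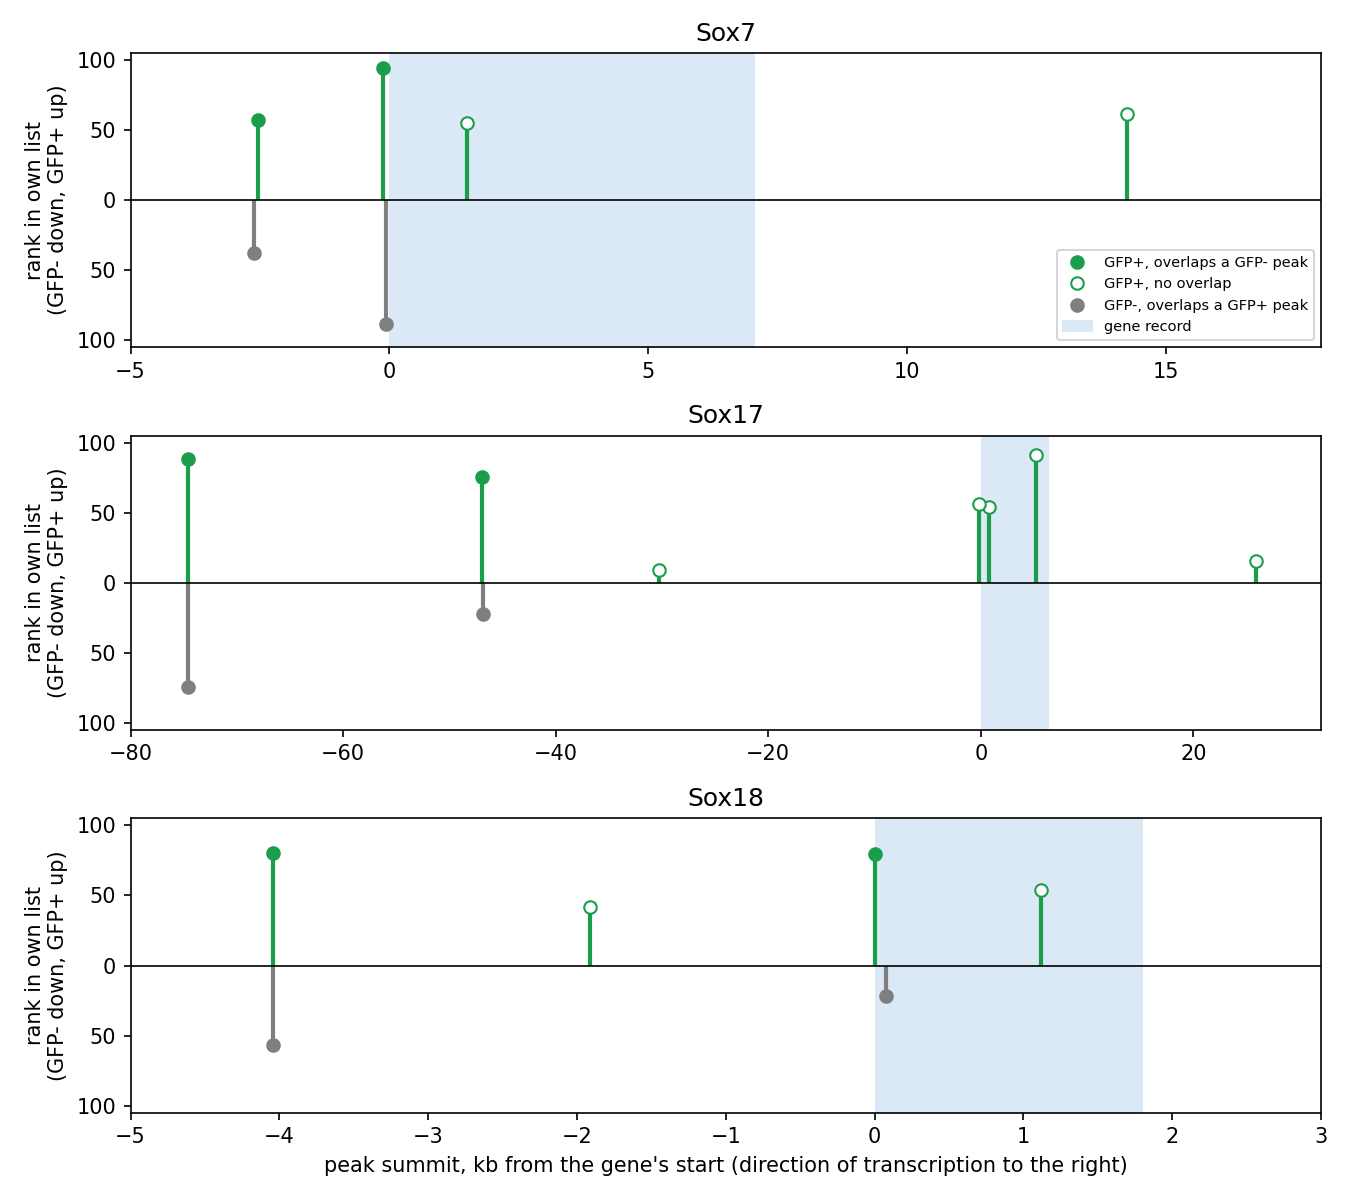
Peaks at Sox7, Sox17 and Sox18, with the distance of the summit from the start of the gene in kb on the horizontal axis and the rank of the peak in its own list on the vertical axis, GFP+ upwards and GFP- downwards. Open circles are GFP+ peaks with no GFP- peak; at Sox17 none of the 3 peaks at the gene has a GFP- counterpart, while each of the other genes has a GFP- peak at its start.

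Sox17, the arterial member of the group, had the most GFP+ peaks, 7, beside 2 in GFP- nuclei, and the most unshared ones, 5. The nearest protein-coding genes lay 81690 and 275852 bp from Sox17, against 10369 and 8670 bp from Sox18 and 23814 and 18607 bp from Sox7. The stretch from which peaks could be assigned was therefore widest for Sox17. Its gene record spans chr1:4490931-4497354 on the minus strand (ENSMUSG00000025902.13). In GFP+ nuclei 3 peaks touched the gene and covered 49.6% of its 6424 bp, and in GFP- nuclei none did. The strongest, chr1:4491646-4493917, was 2272 bp long with 2186 bp in exons and ranked 91.3 in GFP+ nuclei. Its summit lay 5228 bp inside the gene, in coding sequence, and the peak includes 2 of the 8 annotated Sox17 transcript starts. The next, chr1:4496297-4497127, lay wholly in annotated 5′ untranslated sequence, lay within 250 bp of 5 further starts and ranked 54.0. At the start of the gene record, chr1:4497270-4497639 ranked 56.2 with its summit 138 bp upstream. Thus every annotated start of Sox17 had a GFP+ peak within 250 bp and no start had a GFP- peak. The processed transcript Gm37587 runs in the opposite direction and overlaps the same 5′ end, and ATAC-Seq does not tell the strands apart.

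The distal peaks of Sox17 were a mixture of shared and unshared sites. The farthest, chr1:4571321-4572374, had its summit 74593 bp upstream and ranked 88.1 in GFP+ and 74.5 in GFP- nuclei. A second shared site, chr1:4543859-4544597, lay 46940 bp upstream and ranked 75.2 in GFP+ and 22.1 in GFP- nuclei. The far site was thus prominent in both populations and the nearer one mainly in GFP+ nuclei. Unshared GFP+ peaks were also listed 30253 bp upstream, at rank 8.93, and 25893 bp downstream of the gene's start, at rank 15.2. These were the weakest of the 15, at areas of 250.2 and 292.9 against the minimum of 200. Just beyond the 100 kb limit, with Sox17 still the nearest protein-coding gene, lay an unshared GFP+ peak at 105149 bp with rank 44.2, followed by 2 shared regions at 120336 and 125270 bp, with GFP+ ranks of 62.5 and 55.3 and GFP- ranks of 1.74 and 0.267.

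Sox18, the lymphatic and vascular member, occupies chr2:181669836-181671640 on the minus strand (ENSMUSG00000046470.5). Its start was listed in both populations, as a peak of 1454 bp and rank 79.7 in GFP+ nuclei and one of 361 bp and rank 21.6 in GFP- nuclei. The GFP- peak lay wholly inside the GFP+ peak. An unshared GFP+ peak of 653 bp, chr2:181670198-181670850, ranked 53.8 and lay in the last exon, mostly in coding sequence. GFP+ peaks covered 73.9% of the 1805 bp gene record and GFP- peaks 10.6%. Upstream, an unshared GFP+ peak with its summit 1915 bp from the start ranked 42.0. At 4042 bp upstream, a shared site had its summit at the same base in both lists and ranked 80.2 in GFP+ and 57.1 in GFP- nuclei. This upstream site and the Sox18 promoter differed by less than 1 rank point in GFP+ nuclei but by more than 20 in GFP- nuclei. The site lies near the middle of the 8670 bp between Sox18 and the start of Tcea2.

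Sox7, the early endothelial member, occupies chr14:63943673-63950732 on the plus strand (ENSMUSG00000063060.6) and differed least at its start. The promoter peak ranked 94.1 in GFP+ and 88.7 in GFP- nuclei, the highest rank of any SoxF peak in each list, and was 1954 and 1404 bp long. Upstream, a shared site ranked 57.05 in GFP+ nuclei, with its summit at 2546 bp, and 37.7 in GFP- nuclei. The unshared peaks lay on the other side of the start. One, chr14:63944592-63945415, lay in the intron, 1508 bp from the start, and ranked 55.0. The other, chr14:63957593-63958293, lay 7195 bp beyond the end of the gene and ranked 61.3. Among its assigned peaks, Sox7 thus had GFP- peaks at and before its start and no further one within or behind the gene. A GFP- peak of rank 76.1 lay 19271 bp past the Sox7 start but nearer to 4930578I06Rik.

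**Figure D2:**
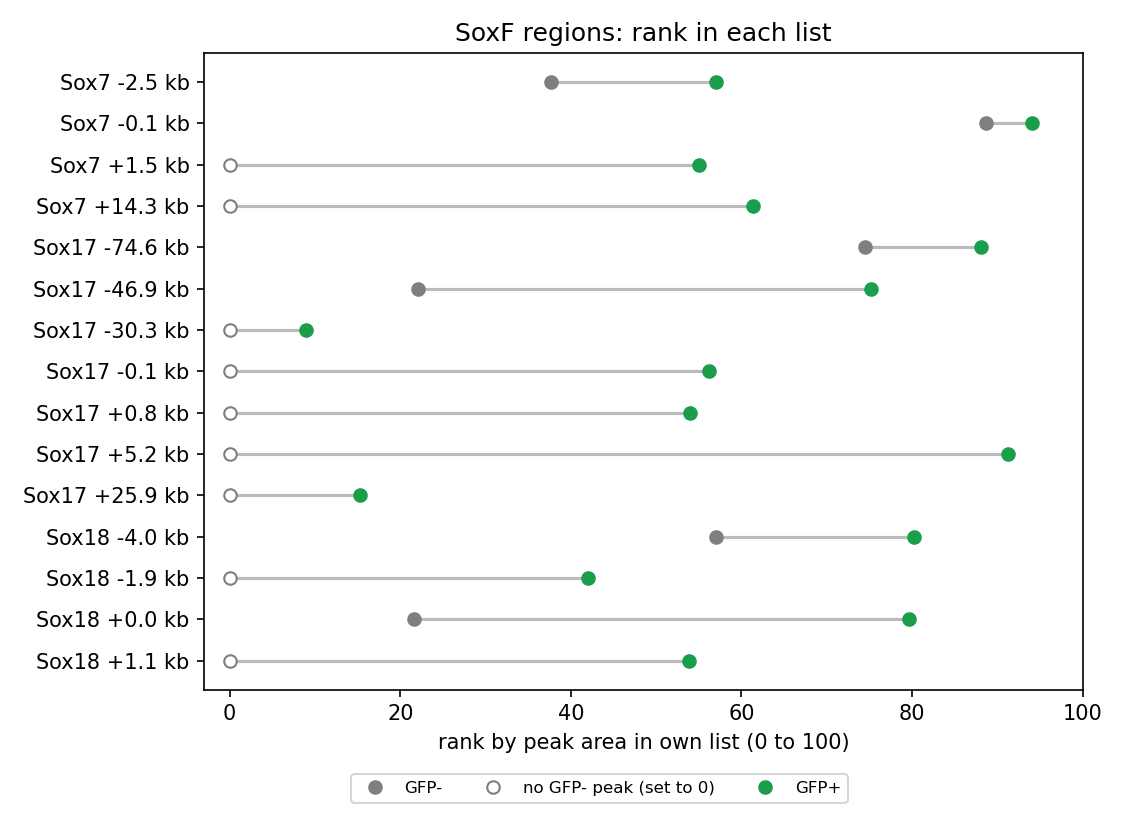
Rank of each of the 15 SoxF regions in the GFP- list (grey) and in the GFP+ list (green), labelled by gene and by the summit's distance from the start in kb; open grey circles mark regions with no GFP- peak, set to 0. Every GFP+ point lies to the right of its GFP- point, which is given by the setting to 0 where no GFP- peak was listed. The distance is 5.43 points at the shared Sox7 start and 91.3 points at the unshared Sox17 exon peak.

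With a missing peak set to rank 0, the median rank difference over the 15 regions was 53.2 points, GFP+ minus GFP-, and over the 6 shared regions 21.3 points, against -3.90 over all 86649 regions and -1.80 over all shared ones. The median over the 15 regions was 35.3 points when ranked by the summit's -log10 p-value, 28.3 with areas of at least 500, 31.6 with the nearest start site and 23.9 with area per bp. Of the 15 regions, 10 were higher in GFP+ nuclei by over 20 points and 0 were lower, against 7.63% of all regions higher by that much. Only 3 of these 10 were shared, out of 6 shared regions. The others had no GFP- peak, so that their difference is their GFP+ rank alone and repeats the count of unshared peaks. The 5 that stayed under 20 points were the Sox7 promoter and upstream site, the far Sox17 site and the weak peaks on either side of Sox17. Where a site was shared, the summits lay 0 to 73 bp apart, at the same base in 2 of 6 regions.

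The promoter rank of a gene is that of its highest-ranked peak within 250 bp of the 5′ end of the gene record. For Sox7 it was 88.7 in GFP- and 94.1 in GFP+ nuclei, for Sox17 0 and 56.2, and for Sox18 21.6 and 79.7. Of the 12596 protein-coding genes with a promoter peak in either list, 2.10% were higher in GFP+ nuclei by over 20 points, among them Sox17 and Sox18, and 1.72% had a peak in GFP+ nuclei only, among them Sox17. A difference as large as that of Sox18, 58.1 points, was reached by 58 genes, that of Sox17, 56.2 points, by 62, and that of Sox7, 5.43 points, by 661 genes. With peaks ranked by area per bp, the difference was 23.9 points for Sox18, 68.2 for Sox17 and 0.921 for Sox7, and by the summit's -log10 p-value that of Sox7 was -0.0156. Among the nearest protein-coding genes, the promoters of Mrpl15, Tcea2 and Pinx1 had similar ranks in both lists. Mrpl15, 275852 bp from Sox17 and so outside the 100 kb window, ranked 84.3 in GFP- and 84.8 in GFP+ nuclei. Tcea2, 8670 bp from Sox18, ranked 92.9 in both, and Pinx1, 23814 bp from Sox7, 83.8 and 81.9. Rp1, 81690 bp from Sox17 on the other side, ranked 31.7 and 25.02, a difference of -6.63 points. Gm29797 and 4930578I06Rik had no promoter peak in either list.

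The genes with the most similar pair of promoter ranks, GFP- then GFP+, differed for each member. Nearest to Sox18 were Cd38 (21.3 and 79.1), Lims2 (19.6 and 77.1) and Cdh5 (17.96 and 85.3), the last of these being VE-cadherin, whose promoter also drives the Cre transgene. Nearest to Sox17, with no GFP- peak, were Slc35f4 at 56.1, Clec1a at 55.5 and Zkscan2 at 55.3 in GFP+ nuclei. Nearest to Sox7 were Ptpn3, Cav2 and Dcun1d5, all within 1.23 points of it over both lists.

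The members can be placed among all genes by their numbers of GFP+ peaks. At least as many GFP+ peaks as the 7 of Sox17 were assigned to 11.4% of 21728 protein-coding gene names, whereas at least as many as its 5 unshared ones were assigned to 1.10%. For Sox7 and Sox18, with 4 peaks each, of which 2 were unshared, the shares were 24.0% and 7.40%. These counts are not adjusted for the distance to neighbouring genes, which was largest for Sox17. The GFP+ peaks touching the gene record numbered 3 for Sox17, 2 for Sox7 and 2 for Sox18.

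The other SOX genes, which include neural, cartilage and cardiac members of the family, were listed less in GFP+ than in GFP- nuclei at their promoters. Of the 16 genes, 7 had a promoter peak in both lists, 3 in GFP- nuclei only, 0 in GFP+ nuclei only and 6 in neither. Of all 12596 genes with a promoter peak in either list, 675 had one in GFP- nuclei only and 217 in GFP+ nuclei only. When any transcript start was counted, 8 of the 16 SOX genes were in both and 5 in neither. Sox6 then ranked 99.8 in GFP- and 90.5 in GFP+ nuclei. The median promoter rank difference over the 10 genes with a peak was -8.95 points, against -0.831 over all genes. The 3 promoters in GFP- nuclei only were those of Sox9, the cartilage and fibroblast regulator, at rank 89.1, Sox5 at 74.1 and Sox11 at 52.8. Sox4 and Sox12, of the SoxC group, were near the top of both lists, at 97.6 and 99.9 in GFP- and 96.4 and 99.8 in GFP+ nuclei. Of the 72 GFP+ peaks assigned to these genes, 11 were unshared, which is 15.3% with an exact interval of 7.88 to 25.7%, close to the 13.4% of all GFP+ peaks. Of their 92 GFP- peaks 37 were unshared, which is 40.2% with an interval of 30.1 to 51.0%, against 30.3% of all GFP- peaks. Sox21, with 56.3 in GFP- and 63.8 in GFP+ nuclei, was the 1 gene among them with a higher promoter rank in GFP+ nuclei.

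**Figure D3:**
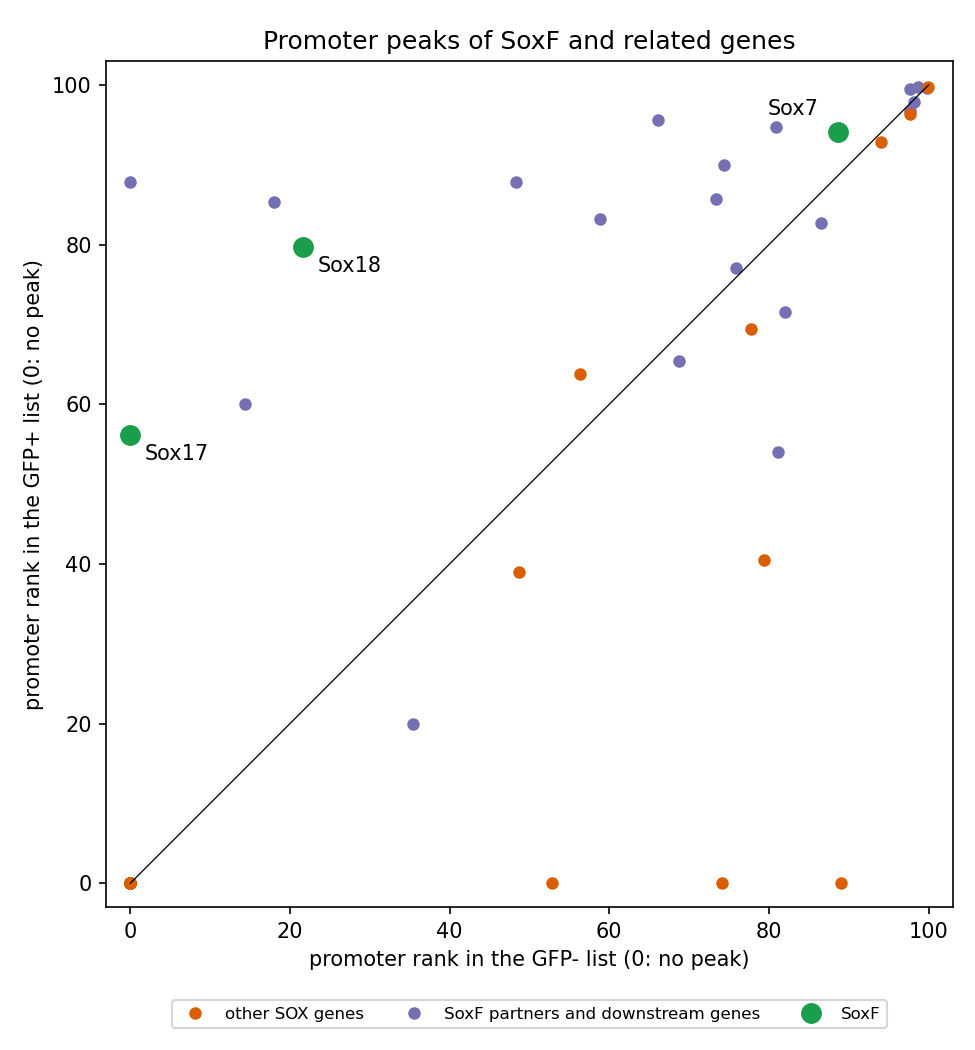
Promoter rank in the GFP- list (horizontal) and in the GFP+ list (vertical) for SoxF genes, other SOX genes, and partners or downstream genes of SoxF; 0 means no promoter peak, several genes share the point at 0 and 0, and the line marks equal ranks. Sox17 and Sox18 lie far above the line, Sox7 lies close to it, and 3 other SOX genes lie on the horizontal axis.

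Genes known to act with or downstream of SoxF factors were mixed. Of 23 such genes, 19 had a promoter peak in both lists, 1 in GFP+ nuclei only and 3 in neither at the gene record's start. When any transcript start was counted, 22 were in both and 0 in neither. At the gene record's start, 6 were higher in GFP+ nuclei by over 20 points, as were 2.10% of all genes with a promoter peak, and 1 was lower. The gene with a GFP+ peak only was Cldn5, a tight-junction claudin of endothelium, at rank 87.9. Dll4, a Notch ligand of arterial and sprouting endothelium, ranked 66.1 in GFP- and 95.6 in GFP+ nuclei, and Flt4, the lymphatic VEGF receptor, 58.8 and 83.3. Prox1, the lymphatic regulator, ranked 86.5 and 82.7, and Efnb2, the arterial ephrin ligand, 97.7 and 99.5. Tek, the angiopoietin receptor, was the 1 gene lower by over 20 points, at 81.1 and 54.1. Of the 235 GFP+ peaks assigned to these genes 34.9% were unshared, and of the 121 at endothelial markers 47.1%, against 13.4% of all GFP+ peaks. Both intervals, 28.8 to 41.4% and 38.0 to 56.4%, overlap that of the SoxF genes, and some genes are on both lists.

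SOX and ETS words were searched for on either strand within the 200 bp centred on a summit. The 6-base ETS word AGGAAG was present in 8 of the 15 GFP+ windows, 53.3% with an exact interval of 26.6 to 78.7%, against 28.6% of all GFP+ peaks. In GFP- nuclei it was present in 3 of 6 windows, against 26.7% of all GFP- peaks. Of the 8 GFP+ windows, 5 belonged to Sox17, 2 to Sox18 and 1 to Sox7, and 5 were unshared and 3 shared. The longer word CAGGAAGT was found in 2 GFP+ windows, both of Sox17, against 3.18% of all GFP+ peaks. These were the peak at the start of the gene record, with the word 69 bp from the summit, and the site 46940 bp upstream printed above, with the word 12 bp from the summit. The core GGAA was in 14 of 15 windows and in 90.2% of all GFP+ peaks. The Sox7 promoter was the window without it.

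SOX words were too few near the summits for a difference from other peaks to be shown. The 6-base word CATTGT was in 1 of 15 GFP+ windows, 6.67% with an exact interval of 0.169 to 31.9%, against 9.40% of all GFP+ peaks, and in 0 of 6 GFP- windows. That window was the unshared Sox18 site 1915 bp upstream, which holds the 7-base CCATTGT 83 bp from the summit; this longer word occurs in 2.82% of all GFP+ peaks. The 5-base ATTGT was in 2 of 15 windows and 21.5% of all GFP+ peaks. In the 400 bp around the summit, CATTGT was in 3 of 15 GFP+ peaks (exact interval 4.33 to 48.1%), against 17.1% of all, and CCATTGT in 3, against 5.08% of all. No SoxF window of 200 bp held both 6-base words, which 3.01% of all GFP+ windows did. Over whole peaks, CATTGT was in 3 of 15 GFP+ peaks and AGGAAG in 12, against 22.3% and 55.3% of all GFP+ peaks, which are shorter, with a median of 459 against 701 bp. The only SoxF peak with both words was the far Sox17 site, where CATTGT occurred 3 times and AGGAAG 3 times, all more than 100 bp from the summit. The 5-base and 7-base words contain or are contained in the 6-base word, so that these counts are not separate observations.

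**Figure D4:**
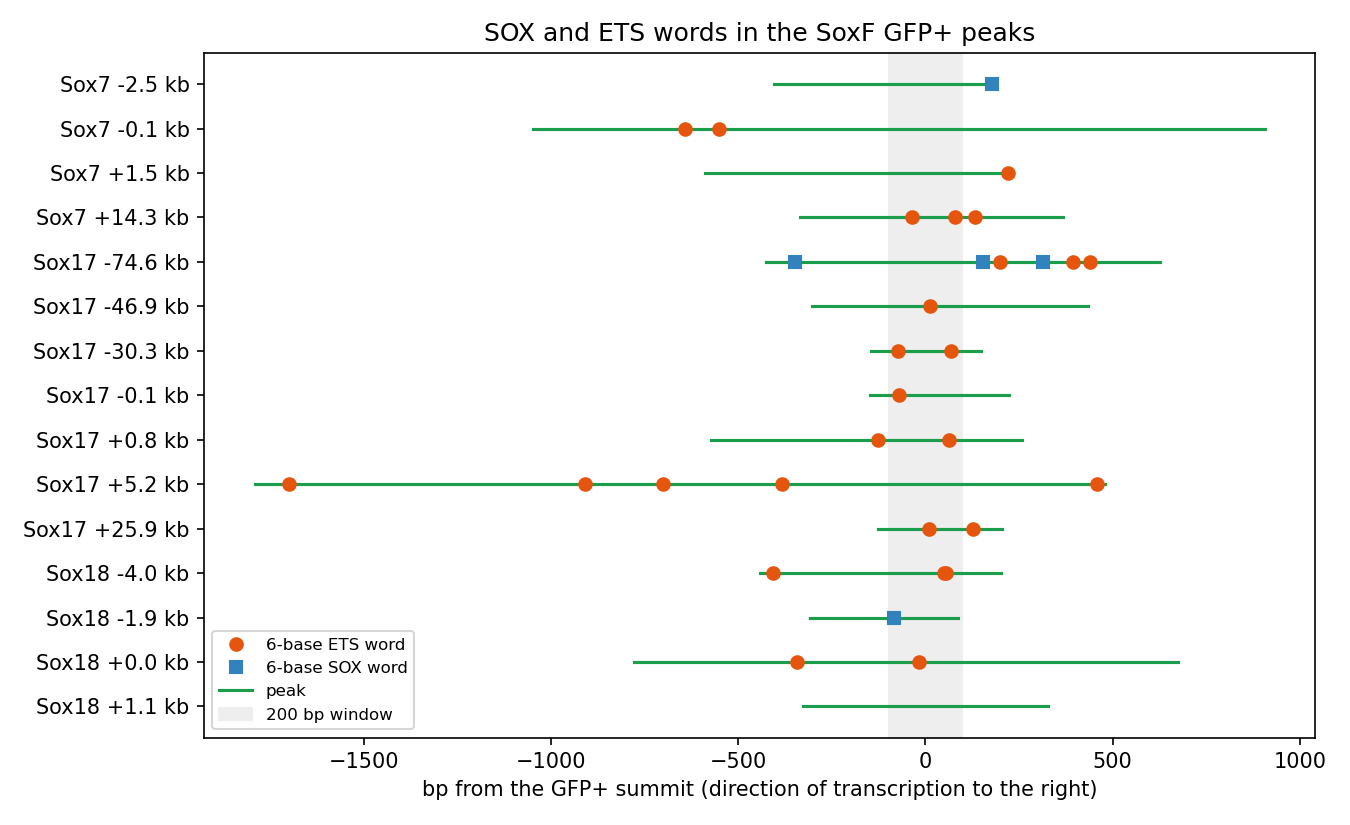
Positions of the 6-base ETS word (circles) and SOX word (squares) in the 15 SoxF GFP+ peaks (green lines), in bp from the summit along the direction of transcription; the grey band is the 200 bp window. Circles lie in the band in 8 peaks and a square in 1, and the far Sox17 site carries both words outside the band.

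The peaks also differed in base composition. The median G+C content of the 200 bp windows was 59.0% in the 15 GFP+ peaks and 67.5% in the 6 GFP- peaks, against 53.0% and 52.5% over all peaks. The unshared GFP+ windows had a median of 56.5% and 5 CpG dinucleotides, and the shared ones 67.5% and 15.5. The CpG-rich unshared windows were the exon and start peaks of Sox17, with 24 and 17, and the last exon of Sox18, with 14. The shares of words over all peaks given above are not matched for composition.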

How the data were processed

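The labels map 4 libraries to GFP- and GFP+ nuclei, 2 each. Per the study's methods, the authors trimmed reads with fastp, aligned them to mm10 with Bowtie2 (2.3.5.1 in the submitters' processing notes), removed low-quality alignments and duplicates, and downsampled each library. Genrich, in its ATAC mode, then called peaks outside blacklisted and mitochondrial sequence. Both replicates entered 1 call per population. Column 7 of the deposited lists is the area, the caller's signal added up along a peak. The authors' score column stops at 1000, and the -log10 p-value they deposited refers to the authors' summit. The reads were evened between libraries by that downsampling before peaks were called. The lists hold no reads per peak and no values per replicate, and no test was made. Downsampling evens the reads but not the share of reads in peaks, on which the length of a list depends, and ranks within a list do not measure absolute accessibility.

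Peaks were assigned by summit to the nearest gene record among protein-coding genes of GENCODE M21, and sequence came from GRCm38.p6, the same build as mm10 (0 peaks ran past a chromosome end). The RefSeq promoter table matched 0 of the 3 genes, so Sox7, Sox17 and Sox18 promoters from it are not printed. Shares have exact (Clopper-Pearson) 95% intervals. Python 3.11.15 was used with pandas 2.3.3, numpy 2.4.6, pysam 0.24.0, scipy 1.17.1 and matplotlib 3.10.9, and the overlap, assignment and merging steps were tested on simulated data. The genes, gene lists, words, rules and alternatives were chosen with earlier results of these data known. Named genes are the members with all their peaks, the nearest protein-coding gene on each side, the 3 genes with the nearest promoter ranks, and the listed genes that were in 1 list only or at the extremes of their list. Sox4, Sox12, Prox1, Efnb2, Flt4, Dll4, Emcn, Tcf21, Dcn, Cd68, Myh6, Tnnt2 and the genes of the closing part were added after their values were seen.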

Additional observations from a re-analysis of the deposited data

How the results depend on the processing

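Of 47 alternative values, 37 stayed within their limits, 9 moved and 1 reversed. The limits were 1.5 times for counts, the main value's 95% interval for shares and medians, and 0.5 points for a promoter. Those intervals rest on at most 15 peaks or regions and are wide, so that staying within one does not show stability. The median difference stayed within its interval at 23.9 points, against 53.2 in the main setting. The unshared share of GFP- peaks did so at 16.7%, against 0%. Assigning peaks to the nearest start site instead of the nearest gene record raised the GFP- peaks of the SoxF genes from 6 to 10, with 0 unshared, and the GFP+ peaks from 15 to 21, of which 52.4% were unshared. Counting noncoding genes as well left 10 GFP+ and 4 GFP- peaks, since Gm37587, Gm22307 and Gm37323 were then nearest to 5 of the Sox17 GFP+ peaks. The Sox7 promoter difference reversed to -0.0156 points when ranks used the summit's -log10 p-value and moved to 0.921 with area per bp. That of Sox17 moved to 91.3 with any transcript start, 53.2 with the summit's -log10 p-value and 68.2 with area per bp, and that of Sox18 to 60.2 and 23.9 with the latter measures. The median difference over the SoxF regions ranged from 23.9 with area per bp to 53.5 with a 50 kb window. By the summit's -log10 p-value 14 of 15 regions, and by area per bp all 15, ranked higher in GFP+ nuclei. Only the 6 shared regions could change direction, because the other 9 had no GFP- peak and a GFP- rank set to 0. AGGAAG was in 80.0% of whole GFP+ peaks, and the longer ETS word was in 13.3% of windows. The causes of these moves were not tested. With 2 replicates pooled before calling, no replicate could be left out. No paired analysis was possible because the lists hold no values per replicate. The lists hold no read counts per peak, which limits what the absence of a peak says.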

Other observations

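Further peaks lay within 100 kb of the SoxF genes but nearer to another protein-coding gene. Around Sox7 there were 19 in GFP+ and 11 in GFP- nuclei, of which 7 and 0 were unshared, where 13.4% of all GFP+ and 30.3% of all GFP- peaks were unshared. Around Sox18 the numbers were 13 and 14, with 1 unshared in each list, and around Sox17 they were 3 and 2, with 1 and 0 unshared. Downstream of Sox18, and nearest to the predicted gene Gm29797, the GFP+ peak chr2:181662666-181663796 had its summit 8203 bp past the Sox18 start. It ranked 86.5 in GFP+ nuclei and was matched by a GFP- peak of rank 36.1. Its neighbour, chr2:181658632-181660251, ranked 90.6 in GFP+ and 83.6 in GFP- nuclei. On the upstream side of Sox18, an unshared GFP+ peak assigned to Tcea2 lay 4810 bp from the Sox18 start at rank 19.7. Near Sox7, the strongest unshared GFP+ peak assigned to a neighbour was closest to Rp1l1, 68106 bp from the Sox7 start, at rank 58.7. A shared site assigned to 4930578I06Rik went the other way, with rank 76.1 in GFP- and 52.8 in GFP+ nuclei. Its summits lay 19271 and 19198 bp past the Sox7 start. Which gene any of these sites acts on was not measured.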
